A study of Mus musculus with 9 samples.

Results

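Toll-like receptors are the membrane proteins with which macrophages sense microbial molecules, and Cd14 is the co-receptor that hands ligands to several of them. The receptors fall into 2 classes by the place in which they sit. Tlr1, Tlr2, Tlr4 and Tlr6 sit at the cell surface and recognise lipopeptides (Tlr2 paired with Tlr1 or Tlr6) or lipopolysaccharide (Tlr4 with its partner Ly96). Tlr3, Tlr7, Tlr8, Tlr9 and Tlr13 sit in endosomes and recognise nucleic acids, and need the chaperone Unc93b1 and endosomal proteases to mature. Tlr3 signals through the adaptor Ticam1, Tlr4 through Myd88 and Ticam1, and the other receptors described here through Myd88.

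The 10 genes were chosen by symbol: 4 surface receptors, 5 endosomal receptors and Cd14, all of which have a row among the 26157 genes of the table. The 9 poly-A RNA-seq libraries came from J774A.1, an established line of mouse macrophages, and 3 were made for each of 3 groups. The control group was kept in normal culture. M2 cells were treated with IL-4 and IL-13, the cytokines used to induce an alternatively activated state, at 10 ng/mL. The Q11 cells received Q11, which the title of the series calls a CYP2E1 inhibitor (CYP2E1 is a cytochrome P450 enzyme), together with both cytokines. The Q11 dose, the cytokine dose of the Q11 group and the durations are not stated in the sources used here. No group received Q11 alone and no group is described as given a Toll-like receptor ligand, so the values are those of cells not deliberately stimulated through these receptors. All libraries come from 1 cell line, and the labels do not say whether the libraries of a group were separate cultures, so the p-values measure only the spread between these libraries, which may be technical.

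Values are TPM, a transcript abundance that is scaled to 1 total in every library and is per length of transcript, so that levels of different genes can be compared. From TPM and exon lengths, 15815847 to 17095787 reads per library were recovered in 8 libraries. The exception is Q11 replicate 2, which held 32193523 reads and fewer reads than Q11 replicate 3 in 11 of 19252 genes, against 1929 to 2413 genes beside each of the other 7 libraries. Q11 replicate 2 therefore appears to contain the reads of Q11 replicate 3 and is not independent of it. It was left out of the fit, and its value is given beside the others. A version of that library with the reads of Q11 replicate 3 subtracted (15336276 reads left, called separated here) is named where it changes a result. The 10 genes had 131 (Tlr1) to 13485 (Cd14) recovered reads each in the 8 libraries, so none rests on a handful of reads.

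All 10 macrophage markers examined (among them Csf1r, Cd68, Spi1 and Adgre1) were at 1 TPM or more in every library. Their summed level was 11115 to 11498 TPM in control, 7370 to 7927 in M2 and 7658 to 7721 in the Q11 libraries, a difference carried mostly by Lyz2 (6859 TPM in control and 3595 in M2, means). Mpeg1 (773 to 806 TPM in control, 498 to 512 in M2), Ptprc (88.1 to 91.6 and 68.9 to 72.6) and Itgam (113 to 128 and 79.3 to 101) were also lower in every M2 library than in every control library. Mertk went the other way, narrowly without overlap (48.0 to 51.5 TPM in control, 51.6 to 56.1 in M2). The control and M2 ranges of Cd68, Spi1, Csf1r, Adgre1 and Fcgr1 overlapped. The part of these macrophage marker differences in the results below was not tested. The B cell list, relevant to Tlr9, summed to 0.198 to 1.66 TPM in control and 0.273 to 1.73 in M2, with Pax5 at 0 in all M2 and Q11 libraries. The plasmacytoid dendritic cell list, relevant to Tlr7 and Tlr9, summed to 200 to 215 TPM in control, 206 to 243 in M2 and 215 to 216 in Q11 libraries. Nearly all of it was Bst2, while Ccr9 stayed below 0.05 TPM. Tcf4, of the same list, was higher in every M2 and Q11 library than in every control library. It stood at 6.45 to 6.68 TPM in control, 8.84 to 9.95 in M2 and 9.93 to 10.4 in Q11 libraries. The conventional dendritic cell list moved with treatment (9.16 to 12.9 TPM in control, 18.5 to 19.6 in M2, 13.7 to 15.2 in Q11), through Batf3 and Zbtb46, with Flt3 and Clec9a at or near 0. The neutrophil list, mostly S100a8, ran from 32.1 to 40.4 TPM in control, 17.6 to 32 in M2 and 19.1 to 22.2 in Q11 libraries, with Mpo at or near 0. The T cell list stayed below 0.9 TPM, the epithelial list below 0.05 and the fibroblast list below 1.5 in the 8 libraries. Siglech, Ly6g, S100a9, Cd3e, Cd3g, Cd8a, Epcam, Krt8, Krt18, Col1a2 and Dcn had no row of that symbol and are not in these sums. The epithelial list was therefore Cdh1 alone. The part of the dendritic cell and neutrophil lists in the results below was not tested.

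The receptors did not move as 1 block under IL-4 and IL-13. Tlr2 fell to less than 50% of its control level, Cd14 fell to 63.0% of it, and Tlr13, Tlr7 and Tlr3 fell to between 77.2% and 78.9%. Tlr8 rose 1.77-fold. Tlr1, Tlr4, Tlr6 and Tlr9 did not pass the test. In all, 6 of the 10 genes passed (1 higher, 5 lower), where 9.49% of the 14014 genes tested did so, 5.06% as higher and 4.43% as lower. By class, 1 of 4 surface receptors and 4 of 5 endosomal receptors passed, beside Cd14. The same 6 genes were the ones whose M2 and control libraries did not overlap, against 28.7% of all genes tested. In bulk RNA, fewer cells with a transcript and less transcript per cell cannot be told apart.

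**Figure D1:**
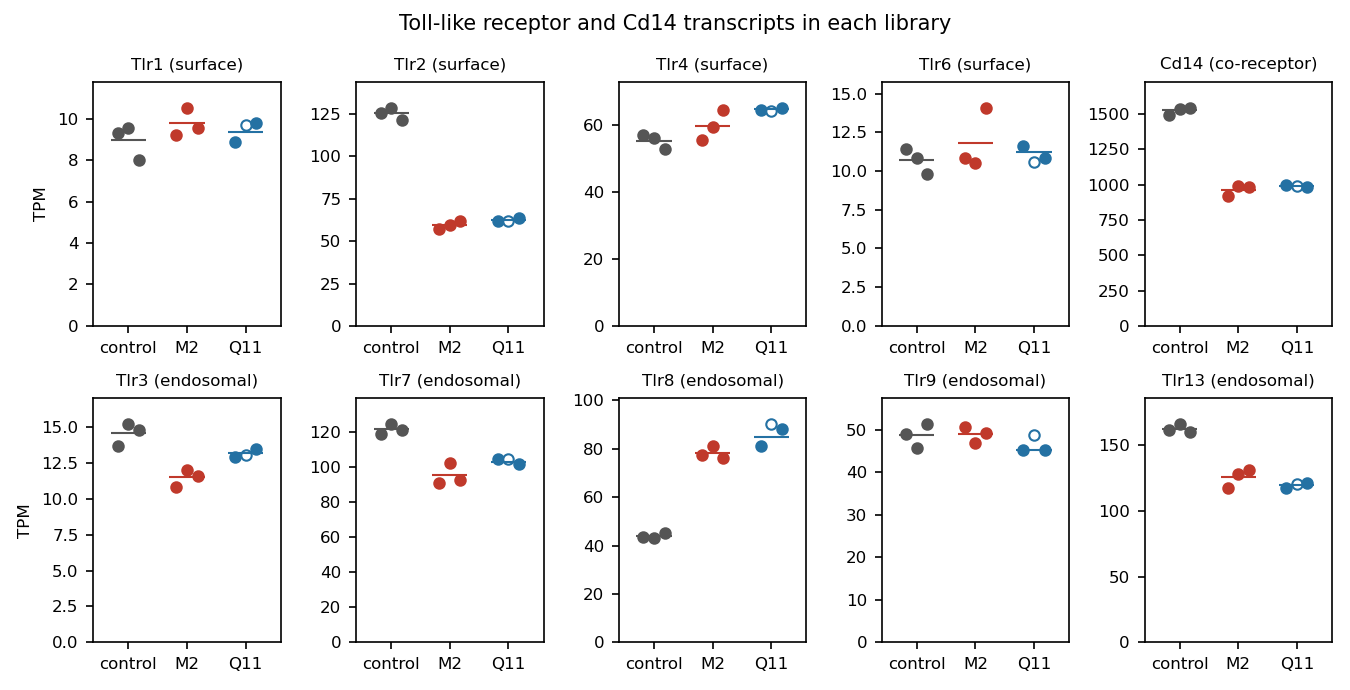
TPM of the 10 genes (y axes, each starting at 0) in the control, M2 and Q11 libraries (x axes). Points are libraries, lines are group means, and the open point is Q11 replicate 2, which shares reads with Q11 replicate 3 and is not in the Q11 mean. Tlr2 and Cd14 are lower and Tlr8 is higher in every M2 and Q11 library than in every control library.

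Among the surface receptors, Tlr2 (ENSMUSG00000027995; GRCm38 chromosome 3, 83836272 to 83841767, minus strand) is the shared partner of the lipopeptide-sensing pairs. It stood at 126, 129 and 122 TPM in the control libraries, 57.3, 59.4 and 61.7 in the M2 libraries and 61.9, 61.8 and 63.4 in Q11 replicates 1, 2 and 3. The control libraries lay far above all others, and the nearest M2 library was 59.98 TPM below the lowest of them. M2 differed from control by -1.06 on the log2(TPM + 1) scale (95% interval -1.15 to -0.97; adjusted p = 6.30e-06), the 111th lowest of the 14014 genes tested.

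Tlr1 (ENSMUSG00000044827; chromosome 5, 64924679 to 64933563, minus strand) and Tlr6 (ENSMUSG00000051498; chromosome 5, 64952031 to 64960097, minus strand), the partners of Tlr2, lie 18467 bases apart and were the least abundant of the surface receptors. Tlr1 stood at 9.30, 9.57 and 8.02 TPM in control, 9.21, 10.5 and 9.57 in M2, and 8.86, 9.69 and 9.81 in Q11 libraries. Tlr6 stood at 11.5, 10.9 and 9.78 TPM in control, 10.8, 10.5 and 14.1 in M2, and 11.6, 10.6 and 10.8 in Q11 libraries. Control and M2 overlapped for both genes. The differences of M2 from control were 0.11 (95% interval -0.10 to 0.33; adjusted p = 0.511) for Tlr1 and 0.12 (-0.14 to 0.39; adjusted p = 0.572) for Tlr6, so a fall of the size seen for Tlr2 lies outside both intervals. The 2 genes are near copies in part. Of the 50-base windows, 15.4% of those of Tlr1 exons and 12.3% of those of Tlr6 occur in another gene. Tlr1 shares 454 of its 512 such windows with Tlr6, and Tlr6 shares 454 of its 456 with Tlr1. The values of both genes are therefore uncertain where the counting could split reads. For the ratio of Tlr2 to the sum of Tlr1 and Tlr6, the mean was 6.40 ± 0.399 (SD, n = 3) in control and 2.76 ± 0.135 (SD, n = 3) in M2 libraries.

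Tlr4 (ENSMUSG00000039005; chromosome 4, 66827584 to 66930284, plus strand), the lipopolysaccharide receptor, stood at 57.0, 56.2 and 52.8 TPM in control, 55.5, 59.4 and 64.7 in M2, and 64.8, 64.2 and 65.3 in Q11 libraries. The M2 libraries spanned the top of the control range and reached above it. Against control, the M2 difference was 0.11 (95% interval -0.02 to 0.24; adjusted p = 0.306).

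Cd14 (ENSMUSG00000051439; chromosome 18, 36725067 to 36726798, minus strand), a lipid-anchored surface protein that passes lipopolysaccharide to Tlr4 and Ly96 and also serves Tlr2 and endosomal receptors, was the most abundant of the 10 genes in every library. It stood at 1497, 1539 and 1545 TPM in control, 918, 988 and 981 in M2, and 1000.1, 989.7 and 984.7 in Q11 libraries. The groups were widely separated from control, with no overlap. The difference of M2 from control was -0.67 (95% interval -0.74 to -0.59; adjusted p = 3.41e-05). The mean of the Cd14 to Tlr4 ratio was 27.6 ± 1.52 (SD, n = 3) in control and 16.1 ± 0.820 (SD, n = 3) in M2 libraries.

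Among the endosomal receptors, Tlr8 (ENSMUSG00000040522; chromosome X, 167242696 to 167264329, minus strand), related to the human receptor for single-stranded RNA, was the 1 gene of the 10 that rose. Its libraries stood at 43.7, 43.2 and 45.3 TPM in control, 77.4, 81.0 and 76.0 in M2, and 81.0, 90.1 and 88.2 in the Q11 group. Every cytokine-treated library exceeded every control library by at least 30.7 TPM. M2 differed from control by 0.81 (95% interval 0.71 to 0.91; adjusted p = 4.60e-05).

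Tlr7 (ENSMUSG00000044583; chromosome X, 167304929 to 167330558, minus strand), a receptor for single-stranded RNA, lies 40599 bases from Tlr8 on the same strand and went the other way. It stood at 119, 125 and 121 TPM in control, 90.8, 103 and 93.0 in M2, and 105, 105 and 102 in Q11 libraries. All treated libraries were below all control libraries. Against control, the M2 difference was -0.35 (95% interval -0.46 to -0.24; adjusted p = 0.00397). The Tlr8 to Tlr7 ratio averaged 0.362 ± 0.0142 (SD, n = 3) in control and 0.819 ± 0.0322 (SD, n = 3) in M2 libraries.

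Tlr13 (ENSMUSG00000033777; chromosome X, 106143204 to 106160493, plus strand), a mouse sensor of bacterial ribosomal RNA with no human counterpart, was the most abundant receptor in all 3 groups. It stood at 162, 166 and 160 TPM in control, 118, 128 and 131 in M2, and 118, 121 and 121 in Q11 libraries. The treated and control libraries did not overlap. The difference of M2 from control was -0.37 (95% interval -0.47 to -0.27; adjusted p = 0.00161).

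Tlr3 (ENSMUSG00000031639; chromosome 8, 45395665 to 45411080, minus strand), the receptor for double-stranded RNA, was the least abundant endosomal receptor. It stood at 13.7, 15.2 and 14.7 TPM in control, 10.8, 12.0 and 11.6 in M2, and 12.9, 13.1 and 13.5 in Q11 libraries. The M2 libraries lay below the control libraries and the Q11 libraries lay between them. M2 differed from control by -0.32 (95% interval -0.47 to -0.16; adjusted p = 0.0244). This call was lost when control replicate 2 (adjusted p = 0.0804), control replicate 3 (0.0789), M2 replicate 1 (0.0793) or M2 replicate 3 (0.0575) was left out. Tlr3 shares 381 exon bases with Gm45542 on the other strand, and the sources used here do not state whether the counting used strand.

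Tlr9 (ENSMUSG00000045322; chromosome 9, 106222598 to 106226883, plus strand), the receptor for unmethylated CpG DNA, stood at 49.0, 45.7 and 51.3 TPM in control, 50.6, 47.0 and 49.2 in M2, and 45.3, 48.8 and 45.3 in Q11 libraries. Control and M2 covered the same range. Against control, the M2 difference was 0.01 (95% interval -0.11 to 0.12; adjusted p = 0.955). Of the other mouse receptors, Tlr5, the flagellin receptor, had 6.78 ± 0.575 TPM (SD, n = 3) in control and 6.36 ± 0.715 (SD, n = 3) in M2 libraries (difference -0.08; adjusted p = 0.700). Tlr11 and Tlr12 had no row of that symbol and could not be examined.

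**Figure D2:**
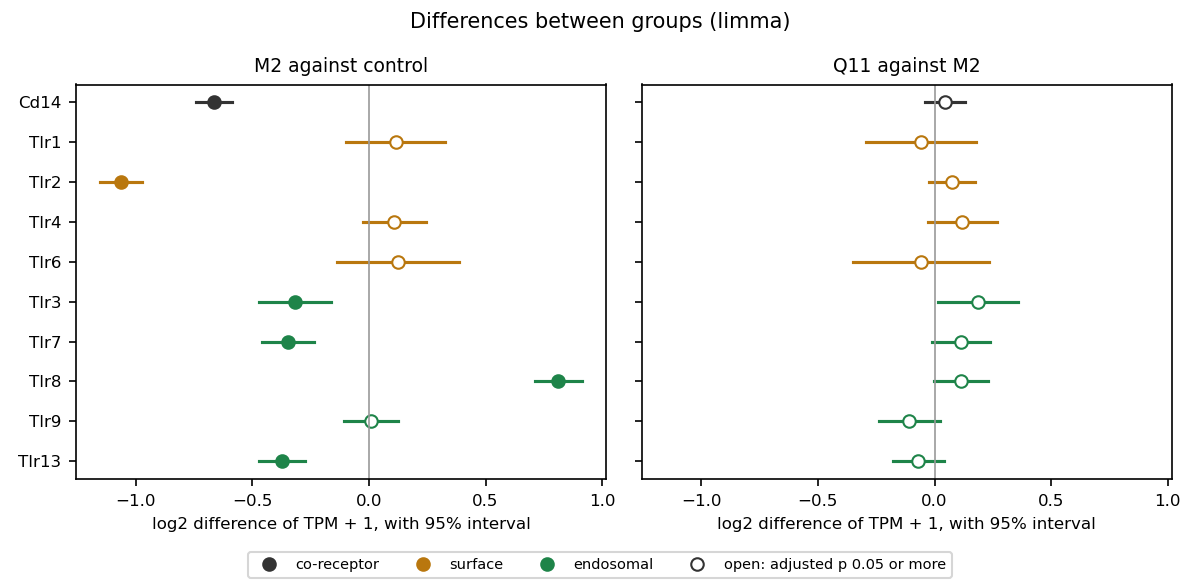
Differences of M2 from control (left) and of Q11 from M2 (right) for the 10 genes, as log2 differences of TPM + 1 (x axis) with 95% intervals from limma. Filled points have an adjusted p under 0.05: 6 genes on the left, from -1.06 (Tlr2) to 0.81 (Tlr8), and 0 on the right.

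The upstream sequences of the receptors with the largest differences in each direction (Tlr2 lower, Tlr8 higher), and of Tlr13 as the most abundant receptor, are shown as the stretch next to which transcription starts. RefSeq promoter windows of GRCm38.p6 were used for 7 of the 10 genes and held 9 promoters. Cd14 was left out of this search, and Tlr4 and Tlr7 had no RefSeq promoter window to search. The absence of these genes is not a result. The 250 bases before each start were searched on both strands for motifs of a macrophage lineage factor and of factors that act in cytokine-treated or microbe-exposed macrophages. The motifs were STAT6 (TTC and GAA with any 4 bases between), PU.1 (GAGGAA), ISRE (GAAA and GAAA with any 2 bases between), AP-1 (TGANTCA) and NF-kB. Of 32851 RefSeq promoters, 5.85% held the STAT6 motif, 23.3% PU.1, 2.98% ISRE, 6.75% AP-1 and 7.25% NF-kB. Lines run 5′ to 3′ along the strand of the gene, are trimmed to bases before the first annotated exon, and have motif matches in capitals.
Tlr2, chr3:83841768-83841858, minus strand: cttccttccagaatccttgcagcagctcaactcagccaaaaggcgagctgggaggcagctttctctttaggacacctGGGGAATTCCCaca
Tlr8, chrX:167264330-167264579, minus strand: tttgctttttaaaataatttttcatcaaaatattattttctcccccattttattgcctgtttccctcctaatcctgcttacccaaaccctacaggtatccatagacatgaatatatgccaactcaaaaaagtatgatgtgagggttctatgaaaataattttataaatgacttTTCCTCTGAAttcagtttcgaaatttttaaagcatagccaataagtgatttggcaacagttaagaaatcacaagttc
Tlr13, chrX:106143025-106143203, plus strand: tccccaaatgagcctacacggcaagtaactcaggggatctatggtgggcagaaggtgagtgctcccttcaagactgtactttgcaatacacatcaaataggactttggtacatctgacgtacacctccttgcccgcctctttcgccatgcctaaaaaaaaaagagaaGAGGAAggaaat
The Tlr2 stretch of 91 bases held 2 NF-kB matches that overlap in all but 1 base, the first starting 173 bases before the RefSeq start. The Tlr8 stretch held a STAT6 match from 77 to 68 bases before the start, whose first 6 bases are also a PU.1 match on the other strand. Tlr13 held a PU.1 match from 83 to 78 bases before its RefSeq start. The RefSeq starts of Tlr2 and Tlr13 lie inside the annotated spans given above, so their printed stretches end before those starts. In the windows of the others, Tlr1 held a PU.1 match, Tlr6 a pair of overlapping ISRE matches, Tlr3 an NF-kB match, and Tlr9 a PU.1 and an AP-1 match. The windows with the Tlr3 and Tlr6 matches lie before RefSeq starts but inside the annotated span of these genes. A match describes the letters only, and binding was not measured.

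With the surface receptors summed, control libraries held 204, 205 and 192 TPM and M2 libraries 133, 140 and 150 TPM. The endosomal receptors summed to 387, 395 and 393 TPM in control and 347, 371 and 361 TPM in M2. Both sums were lower in every M2 library than in every control library. The surface share of receptor transcripts was 33.9% ± 0.856 (SD, n = 3) in control, 28.2% ± 1.08 (SD, n = 3) in M2 and 28.8% ± 0.108 (SD, n = 2) in Q11 libraries. On the log2 scale, the surface to endosomal ratio was 0.39 lower in M2 than in control (-0.97 against -1.35), and the gap became -0.52 with Cd14 counted at the surface. These sums are a description, and no test was made of the difference between classes.

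The sums were also taken without the gene of the largest difference in each class, which was chosen for its values. Without Tlr2, the other surface receptors summed to 75.0 ± 3.87 TPM (SD, n = 3) in control and 81.5 ± 6.46 (SD, n = 3) in M2 libraries. Without Tlr8, the other endosomal receptors summed to 347 ± 4.14 TPM (SD, n = 3) in control and 281 ± 10.2 (SD, n = 3) in M2 libraries. The first pair of sums overlapped between the groups (70.6 to 77.8 against 75.6 to 88.4 TPM), and the second did not (343 to 352 against 270.0 to 289.7 TPM). The median difference of M2 from control was 0.11 over the 4 surface receptors and -0.32 over the 5 endosomal receptors, beside -0.00 over all genes tested.

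**Figure D3:**
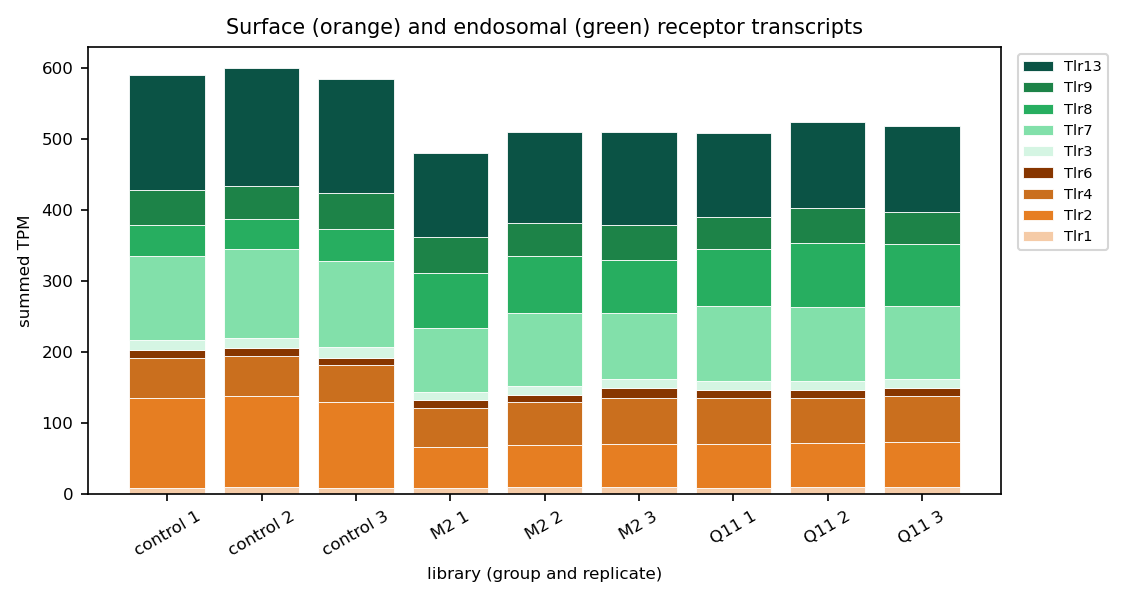
Summed TPM (y axis) of the 4 surface receptors (orange) and 5 endosomal receptors (green) in each of the 9 libraries (x axis). Tlr2 takes 21.2% of the receptor total in control and 11.9% in M2, and Tlr8 takes 7.44% and 15.6%, as means of 3 libraries.

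The order of the levels changed with treatment. In control, Cd14 came first, then Tlr13, Tlr2, Tlr7, Tlr4, Tlr9, Tlr8, Tlr3, Tlr6 and Tlr1, and Tlr2 and Tlr7 overlapped in their libraries. In M2, Tlr7 and Tlr8 followed Tlr13, then came Tlr4 and Tlr2, which overlapped, then Tlr9, Tlr6 and Tlr3, which overlapped with Tlr6, and Tlr1. Tlr2 thus moved from place 3 to place 6 and Tlr8 from place 7 to place 4. In the Q11 libraries the order was that of M2, except that Tlr3 stood above Tlr6.

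Adding Q11 to the cytokines changed none of the 10 genes beyond the threshold, and none of the 14014 genes tested (0%) passed with limma, with 1013 (7.23%) at an unadjusted p under 0.05. Limma-voom on the recovered reads, the other tool run, also called 0 genes. The differences of Q11 from M2 ran from -0.11 (Tlr9) to 0.19 (Tlr3). Tlr3 was the 1 member with an unadjusted p under 0.05 (difference 0.19, 95% interval 0.01 to 0.36; adjusted p = 0.677). For Tlr8 the difference was 0.11 (95% interval -0.00 to 0.23), for Tlr7 0.11 (-0.01 to 0.24), for Tlr4 0.12 (-0.03 to 0.27) and for Tlr2 0.07 (-0.02 to 0.17). For Cd14 it was 0.04 (-0.04 to 0.13), for Tlr13 -0.07 (-0.18 to 0.04) and for Tlr9 -0.11 (-0.24 to 0.02), and the widest intervals were those of Tlr1 (-0.30 to 0.18) and Tlr6 (-0.35 to 0.23). A full reversal by Q11 of the M2 difference in Tlr2, Cd14 or Tlr8 lies outside these intervals, while smaller differences could not be told from 0.

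For 5 genes the Q11 and M2 libraries did not overlap (Tlr2, Tlr3, Tlr4 and Tlr8 higher, Tlr9 lower), against 23.5% of all genes tested with 2 Q11 libraries. With the separated Q11 replicate 2 as 1 more library, 2 genes did not overlap (Tlr3 and Tlr8, both higher), against 12.6% of all genes. In that fit Tlr3, Tlr7 and Tlr8 had an unadjusted p under 0.05, against 8.1% of all genes, with differences of 0.17, 0.13 and 0.15, and adjusted p of 0.599, 0.591 and 0.591. The Tlr9 value of the separated library was 52.6 TPM, above both other Q11 libraries at 45.3.

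Set against control, the Q11 libraries differed in 5 of the 10 genes (1 higher, 4 lower), where 5.65% of all genes passed, 2.44% as higher and 3.21% as lower. The Q11 and M2 groups share the control libraries, so the values are given side by side only. Tlr2 was -0.99 (adjusted p = 2.12e-05) beside -1.06 in M2, Cd14 -0.62 (1.13e-04) beside -0.67, Tlr13 -0.44 (0.00161) beside -0.37, and Tlr8 0.93 (7.31e-05) beside 0.81. For Tlr7 the difference was -0.23 (adjusted p = 0.0459) beside -0.35, and it passed in 10 of 19 other settings. The Tlr7 call was lost without any 1 of the 3 control libraries (adjusted p 0.0885, 0.121 and 0.109), without M2 replicate 3 (0.0553) and without Q11 replicate 1 (0.175) or 3 (0.220). Tlr4 was 0.23 (95% interval 0.08 to 0.38; adjusted p = 0.0896) beside 0.11, and passed in 5 of 19 other settings, among them all 9 libraries as deposited (adjusted p = 0.0321) and without M2 replicate 3 (0.0440). The fit of all 9 libraries as deposited treats Q11 replicate 2 as independent. With the separated Q11 replicate 2, Tlr4 did not pass in the same limma fit (adjusted p = 0.0529). It did pass with limma-voom on the separated reads (0.00757).

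The genes around the receptors moved in part and mostly downward in M2. Of 101 genes in 7 lists (co-receptors, chaperones and proteases, adaptors, kinases and ubiquitin ligases, transcription factors, negative regulators and target genes), 90 could be tested. Of these, 8 were higher and 29 lower in M2 than in control, with a median difference of -0.13 beside -0.00 over all genes tested. Over all genes tested 5.06% were higher and 4.43% lower, 9.49% either way, the share beside which each count below stands. The lists were put together with earlier results of these data known, so they are not independent evidence of a direction. Of the 37 calls, 21 held in all 19 other settings. Without control replicate 1 or 2, the number lower was 19 or 18. In Q11 against M2, 0 of the 90 passed.

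Of the 6 co-receptor genes tested, 3 fell. Itgam and Itgb2, the chains of the integrin CD11b/CD18, fell from 122 ± 7.55 to 90.9 ± 10.9 TPM (SD, n = 3 each; difference -0.42, adjusted p = 0.0203) and from 497 ± 4.62 to 391 ± 20.6 TPM (difference -0.35, adjusted p = 0.00133). Itgam no longer passed when control replicate 1 (adjusted p = 0.0708) or 3 (0.0702) or M2 replicate 1 (0.0553) was left out. Cd180, a receptor-like relative of Tlr4, fell from 81.2 ± 3.41 to 64.0 ± 2.78 TPM (difference -0.34, adjusted p = 0.00319). Ly96, the Tlr4 partner that binds lipopolysaccharide, had 31.0 ± 3.41 TPM in control and 25.6 ± 3.81 in M2 (difference -0.27, 95% interval -0.53 to -0.01; adjusted p = 0.201).

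Of 14 genes for receptor transport and endosomal processing, 2 rose and 5 fell. Cathepsin L (Ctsl), a protease that can cut endosomal receptors, rose from 325 ± 15.8 to 425 ± 11.6 TPM (difference 0.39, adjusted p = 0.00103), and the endosomal protease Lgmn also rose, though not past the threshold when control replicate 1 (adjusted p = 0.0544) or 3 (0.0534) was left out. Cathepsin S (Ctss) fell from 2025 ± 50.3 to 1653 ± 73.6 TPM (difference -0.29, adjusted p = 0.00276), cathepsin K (Ctsk) by 0.20 on the log2 scale (adjusted p = 0.0154) and Pld3, a nuclease that degrades ligands of Tlr9, by 0.22 (adjusted p = 0.00724). Slc15a3 and Pld4 were the other genes that fell. Leaving out control replicate 1 or 2 ended the Ctsk call (adjusted p = 0.0621 and 0.0551), and leaving out control replicate 2 or 3 that of Slc15a3 (0.0661 and 0.0690). Unc93b1, on which the endosomal receptors depend, had 330 ± 11.2 TPM in control and 302 ± 8.53 in M2 (difference -0.12, adjusted p = 0.0616).

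None of the 6 adaptors passed the test. Myd88 had 114 ± 5.36 TPM in control and 115 ± 4.03 in M2 (difference 0.01, 95% interval -0.10 to 0.13), Ticam1 42.8 ± 1.85 and 45.2 ± 0.472 (difference 0.08, -0.05 to 0.20), and Tirap 25.1 ± 1.34 and 22.9 ± 3.43 (difference -0.14, -0.37 to 0.10). Among 18 kinases and ubiquitin ligases, 3 fell and 0 rose: Irak2, which sustains signalling below Myd88 (48.3 ± 2.57 to 33.5 ± 1.26 TPM; difference -0.52, adjusted p = 6.88e-04), Ikbke (difference -0.43, adjusted p = 3.96e-04) and Chuk (difference -0.17, adjusted p = 0.0225). The Chuk call was lost without control replicate 1 (0.0625), 2 (0.0729) or 3 (0.0713) or M2 replicate 3 (0.0544).

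Of 14 transcription factors, 2 rose (Nfkb1 and Jun) and 4 fell (Nfkbiz, Irf8, Fos and Nfkb2). Nfkbiz, a nuclear cofactor of NF-kB, fell from 12.4 ± 0.503 to 6.54 ± 0.812 TPM (difference -0.83, adjusted p = 0.00188). Irf8, a myeloid lineage factor, fell from 89.4 ± 4.48 to 65.8 ± 2.86 TPM (difference -0.44, adjusted p = 0.00126). Nfkb1 rose from 55.2 ± 0.580 to 68.2 ± 1.77 TPM (difference 0.30, adjusted p = 0.00133). The calls of Fos, Jun and Nfkb2 were lost when single libraries were left out, with adjusted p up to 0.0945 (Fos, without control replicate 2), 0.0958 (Jun, without control replicate 1) and 0.0655 (Nfkb2, without control replicate 2).

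Of 18 negative regulators, 3 rose and 7 fell. Socs1, an inhibitor of cytokine receptor signalling that IL-4 induces, rose from 1.53 ± 0.504 to 7.10 ± 1.32 TPM (difference 1.69, adjusted p = 0.00118), from 17 to 31 recovered reads per control library to 83 to 115 per M2 library. Nfkbie fell by 0.58 on the log2 scale (adjusted p = 4.26e-04), Dusp1, a phosphatase of MAP kinases, by 0.45 (adjusted p = 0.0103) and Irak3, an inhibitor of receptor kinases, by 0.41 (adjusted p = 0.0143; 0.0568 and 0.0528 without control replicate 1 or 2). The rise of Otulin was lost when any library but M2 replicate 2 was left out (adjusted p up to 0.112, without control replicate 1). Nfkbia, 1 of the genes that fell, lost its call without control replicate 1 (0.0563), 2 (0.0941) or 3 (0.0977) or M2 replicate 2 (0.0764) or 3 (0.0653). Zfp36 also rose (difference 0.34, adjusted p = 0.00163). Tank (difference -0.37, adjusted p = 0.00133), Trafd1 (-0.36, 0.00881) and Tnip1 (-0.24, 0.00189) also fell. The calls of Zfp36, Tank, Trafd1 and Tnip1 held in all 19 other settings.

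Of 14 target genes tested, 1 rose (Ccl2) and 7 fell, and the median difference was -0.45. Cxcl2, a neutrophil-attracting chemokine, fell from 35.0 ± 4.79 to 14.5 ± 0.237 TPM (difference -1.21, adjusted p = 2.45e-04), and Tnf, the inflammatory cytokine, from 141 ± 1.52 to 78.3 ± 7.39 TPM (difference -0.85, adjusted p = 7.33e-04). Acod1, which makes itaconate, fell by 0.81 (adjusted p = 0.0220) and Ptgs2, an enzyme of prostaglandin synthesis, by 0.72 on the log2 scale (adjusted p = 0.00385). Ccl3, Cd40 and Icam1 also fell. Calls that ended with 1 library left out were those of Acod1 (adjusted p = 0.0508, 0.0726 and 0.0565 without control replicates 1, 2 and 3), Ccl3 (up to 0.0756, without control replicate 1), Icam1 (up to 0.0925, without M2 replicate 1) and Cd40 (without any 1 of the 8 libraries, up to 0.130).

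**Figure D4:**
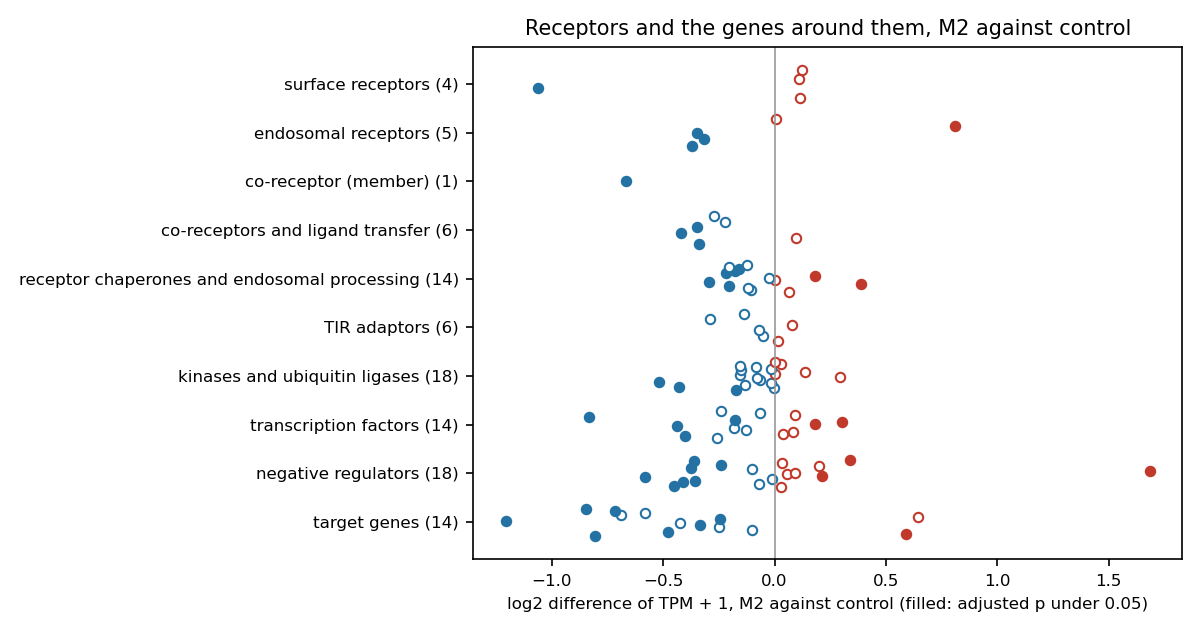
Log2 differences of TPM + 1 between M2 and control (x axis) for the receptors, Cd14 and the genes tested in 7 lists (rows, with the number of genes). Filled points have an adjusted p under 0.05, blue is lower and red is higher. The 6 adaptors are all open, and 7 of the 8 filled target genes are blue.

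Among 9424 genes whose mean was 5 TPM or higher, the genes most like each changed member over the 8 libraries were picked by Pearson's r of log2(TPM + 1). The libraries fall into 3 treatment groups, so these values reflect the difference from control that the genes share, and they carry no p. Lyz2, Anxa5 and Spp1 were most like Tlr2 (r = 0.998, 0.997 and 0.996), and Lyz2, Spp1 and Stom most like Cd14 (each r = 0.998). Igf1, Dab2 and Vwa5a, which had higher means in M2 than in control, were most like Tlr8 (r = 0.997, 0.994 and 0.994). For Tlr13 the genes were Ass1, Efr3b and Cyfip2 (r = 0.999, 0.995 and 0.992), for Tlr7 Pla2g7, Bmt2 and Tmem38b (r = 0.991, 0.988 and 0.981), and for Tlr3 Tmem176a, Klf6 and Ggh (r = 0.994, 0.976 and 0.972). With the separated Q11 replicate 2 added, the order of the named genes changed for every member but Tlr2. Ass1 then had r = 0.969 with Tlr13, below Efr3b (0.993) and Cyfip2 (0.976), and the lowest r was 0.962 (Ggh with Tlr3).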

How the data were processed

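Gene expression was measured by RNA-seq in 9 libraries of J774A.1 cells (3 control, 3 M2, 3 Q11). The authors' deposited values are TPM, in 1 table of 26157 genes. HISAT2 2.0.5, StringTie 1.3.3b and the builds GRCm38 and mm10 are named per the submitters' processing notes, and the library kit is NEBNext Ultra per the labels' protocols. The sources used here do not give the strand setting or the annotation release. Gene models were taken from GENCODE M21, which held exon lengths for 25594 IDs (97.8%).

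TPM multiplied by exon length gave whole reads (tolerance 0.1 read) for 98.9% to 99.2% of the values up to 20 reads. The fit was limma 3.58.1 (R 4.3.3) on log2(TPM + 1) with a mean-variance trend, over 8 libraries without Q11 replicate 2, 1 mean per group, and genes that reached 1 TPM in 3 or more libraries. This left 14014 genes, 5 residual degrees of freedom and Benjamini-Hochberg adjustment over all of them, and genes under an adjusted p of 0.05 are said to pass. Tests are two-sided. A difference of log2(TPM + 1) understates the change of genes of low level. TPM sum to 1 total per library, and the median of all genes moved by less than 0.1 on the log2 scale under every setting. The limma fit was tested on simulated data with set differences of M2 from control.

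All 10 members were named whatever their values, and from each list up to 4 genes that passed with the largest differences in M2 against control and at least 5 TPM, plus Ly96, Unc93b1, Myd88, Ticam1 and Tirap. The other genes named as risen or fallen complete those counts and were picked with their values in view. The members and lists were chosen with earlier results of these data known. Control and M2 replicates of the same number did not deviate together over genes, so the numbers were not treated as pairs.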

Additional observations from a re-analysis of the deposited data

How the results depend on the processing

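Each comparison was recomputed under 19 other settings. The calls of Tlr2, Cd14, Tlr8, Tlr13 and Tlr7 in M2 against control held in all 19, and that of Tlr3 in 15. Tlr2, Cd14, Tlr8 and Tlr13 also passed in all 19 for Q11 against control. In M2 against control, 791 genes were called with no mean-variance trend and 2140 with limma-voom on recovered reads, against 1330, and 732 (without control replicate 1) to 1130 when 1 library was left out. Counts more than 1.5 times smaller came without control replicate 1, 2 (844) or 3 (769) or M2 replicate 1 (773). Of the 10 genes, 1 was then higher and 4 to 5 were lower. Among the genes of the 7 lists, 5 were higher and 19 lower with no trend, against 8 and 29, and 6 to 7 were higher and 18 to 29 lower with 1 library left out. In Q11 against M2, 0 members passed in any setting. Among all genes, 1 (Gm11545) was called with the 2 groups alone, 3 (1700001D01Rik, Gm25661 and Gm25558) with no filter on low values, and 0 to 1 with 1 library left out (Gm11545 without control replicate 3). For Q11 against control, against 792 called, the counts were 1524 with all 9 libraries as deposited, 444 with no trend, 1404 with limma-voom on recovered reads, and 1563 with limma-voom on the separated reads, a setting chosen after seeing the data. With 1 library left out the range was 252 (without Q11 replicate 1) to 818, with 292 without Q11 replicate 3 and 471, 486 and 482 without control replicates 1, 2 and 3. With a replicate block the count was 467, and Tlr7 was lost (adjusted p = 0.0774). In M2 against control the replicate block gave 916 genes and the same numbers of members, 1 higher and 5 lower, with 6 genes of the lists higher and 24 lower. The correlations of the deviations of same-numbered control and M2 libraries were 0.122, -0.10 and 0.052. Tlr4 made a second higher member in Q11 against control (2 in place of 1) with all 9 libraries as deposited, with the 2 groups alone and in both limma-voom fits, and 1 to 2 were higher and 3 to 4 lower with 1 library left out. The surface to endosomal difference of M2 from control was -0.52 with Cd14 counted at the surface, against -0.39. The cause of these changes was not tested, other than that fewer libraries enter the fits with 1 left out. Of the 10 genes, Tlr1 and Tlr6 had the fewest recovered reads (131 to 165 and 178 to 251 per library) and the widest intervals.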
